A study of Mus musculus with 2 samples.

Results

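A set of 8 transcription factors that act in the forming nephron and the ureteric tree were followed: Lhx1, Hnf4a, Sim1, Pou3f3, Tfap2b, Tfap2a, Emx2 and Mecom. They were taken by name from the 42462 genes with a symbol, by a rule that uses no measured value, and all 8 were found. The data are total RNA-seq of whole mouse kidney at embryonic day 14.5 in strain B6NCrl. There is a single group of 2 libraries, biological replicates 1 and 2, with no mutant, treated or other reference group. Each library was made from 10 ng of RNA longer than 200 nt from both kidneys of an embryo, with spike-in RNAs added; the labels call the sex of each sample pooled while describing a single pup. Depth was nearly equal, with 29718428 expected counts in replicate 1 (28429080 of them on genes) and 29204212 in replicate 2 (27758872 on genes).

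At this stage new nephrons form beside the tips of the branching ureteric tree. Each passes from a renal vesicle through comma- and S-shaped bodies, which are then divided into a podocyte, a proximal, a loop and a distal part. Lhx1, a LIM-homeodomain protein, is needed for patterning of the renal vesicle. Hnf4a, a nuclear receptor, is needed for the proximal tubule, and Sim1, a bHLH-PAS protein best known from the hypothalamus, has been used as a marker of early proximal cells. Pou3f3, a POU-domain protein also called Brn1, is needed for the loop of Henle and the distal tubule, and Tfap2b, an AP-2 protein, for the distal nephron, while its relative Tfap2a is best known from neural crest and surface ectoderm. Emx2, a homeodomain protein, is needed in the ureteric bud, and Mecom, a zinc finger protein known from blood stem cells, favours distal over proximal segments in the zebrafish pronephros.

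Hnf4a and Mecom have alternative starts that give different proteins, and the sequences before 3 of those starts are shown because the transcript values below are read by start. Sequences are RefSeq promoters on build GRCm38.p6, in lower case, 5′ to 3′ on the strand of the gene. They stop before the first base annotated as an untranslated region, and exons of noncoding models were not used for this. The capitals mark CG dinucleotides. The windows are chr2:163506607-163506807 on the plus strand before the distal Hnf4a start (known as P2), chr2:163546905-163547154 on the plus strand before the proximal start (P1), and chr3:30509823-30510009 on the minus strand before the distal Mecom start. The proximal Hnf4a start here is the RefSeq start at 163547155. A noncoding model, Hnf4a-203, starts upstream of that window, at 163546817.
Hnf4a distal start: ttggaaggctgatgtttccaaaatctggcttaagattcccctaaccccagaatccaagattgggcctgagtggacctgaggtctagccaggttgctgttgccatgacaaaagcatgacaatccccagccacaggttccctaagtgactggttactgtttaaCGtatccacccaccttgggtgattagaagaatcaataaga
Hnf4a proximal start: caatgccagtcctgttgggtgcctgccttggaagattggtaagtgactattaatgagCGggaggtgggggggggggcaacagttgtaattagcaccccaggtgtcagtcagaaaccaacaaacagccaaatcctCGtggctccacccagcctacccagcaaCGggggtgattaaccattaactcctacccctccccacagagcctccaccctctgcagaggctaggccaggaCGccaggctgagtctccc
Mecom distal start: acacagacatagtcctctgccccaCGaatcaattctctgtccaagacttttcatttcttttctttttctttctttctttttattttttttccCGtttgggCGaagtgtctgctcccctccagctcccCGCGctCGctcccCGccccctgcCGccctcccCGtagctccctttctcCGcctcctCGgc

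Over 32851 RefSeq promoter windows of 250 bases the median was 6 CG dinucleotides. The full Hnf4a windows held 3 before the distal start and 4 before the proximal one, both under that median. The full Mecom windows held 14 before the distal start and 8 before the start of the shorter EVI1 form, both over it. These are counts of letters, and no methylation or binding was measured.

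All 8 factors were detected, taking 1 TPM in both libraries as the limit (TPM is abundance per transcript length, scaled to a fixed sum per library). Of all genes with a symbol 33.5% were detected, and of protein-coding genes 59.0%. The factors covered a wide range, with means between 2.84 and 54.1 TPM. Their median was 18.95 TPM, against 18.3 TPM over the detected protein-coding genes, but no factor lay near it: 4 were above 30 TPM and 4 below 10 TPM in both libraries. In bulk tissue, fewer cells of a type and less RNA per cell cannot be told apart. Values below are given for replicate 1 and then replicate 2, means are ± SD (n = 2), and the bounds are the deposited credibility bounds of a library's own TPM estimate, at a level not given in the sources used here.

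Lhx1 (ENSMUSG00000018698.11, minus strand of chr11:84518284-84525535 on GRCm38) had 32.45 and 30.1 TPM, from 2263 and 2474 expected counts. The libraries lay close together, at 31.3 ± 1.69 TPM, with bounds of 30.5 to 34.1 TPM in replicate 1 and 28.5 to 31.4 TPM in replicate 2 that overlapped. By mean TPM, 20.5% of protein-coding genes were higher.

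Hnf4a (ENSMUSG00000017950.12, plus strand of chr2:163506808-163572910) had 8.43 and 4.53 TPM, from 682 and 435 expected counts, with a mean of 6.48 ± 2.76 TPM. Replicate 1 was the higher library, and its bounds of 7.82 to 9.49 TPM did not meet the 4.23 to 5.42 TPM of replicate 2. Such bounds do not measure the spread between embryos. Sim1 (ENSMUSG00000019913.3, plus strand of chr10:50894754-50989152) had 6.65 and 4.75 TPM, from 942 and 777 expected counts, with a mean of 5.70 ± 1.34 TPM. Its higher library was again replicate 1, and the libraries of both proximal factors lay in the same range.

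Pou3f3 (ENSMUSG00000045515.3, plus strand of chr1:42695768-42703176) had 6.94 and 6.35 TPM, from 990 and 1045 expected counts, which overlapped within their bounds. It is a single-exon gene with an annotated transcript of 7409 nt. Tfap2b (ENSMUSG00000025927.9, plus strand of chr1:19208914-19238576) had 32.1 and 31.2 TPM, from 1215 and 1279 expected counts. With 31.6 ± 0.643 TPM it stood with Lhx1 and well above Pou3f3. Tfap2a (ENSMUSG00000021359.11, minus strand of chr13:40715302-40738376) had 3.28 and 2.40 TPM, from 190 and 160 expected counts. It was the lowest of the 8 in both libraries, and 53.3% of protein-coding genes were higher.

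Emx2 (ENSMUSG00000043969.4, plus strand of chr19:59458372-59465357) had 32.2 and 32.9 TPM, from 1227 and 1341 expected counts. The libraries differed by less than either estimate's bounds, with a mean of 32.5 ± 0.516 TPM. Mecom (ENSMUSG00000027684.12, minus strand of chr3:29951296-30548008) had 70.0 and 38.1 TPM, from 5002 and 2873 expected counts. It was the highest of the 8 in each library and also the one with the largest SD in TPM, 54.1 ± 22.6 TPM. Relative to the mean, the spread of Hnf4a, at 6.48 ± 2.76 TPM, was about as wide. For Mecom, 12.6% of protein-coding genes were higher than its mean.

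**Figure D1:**
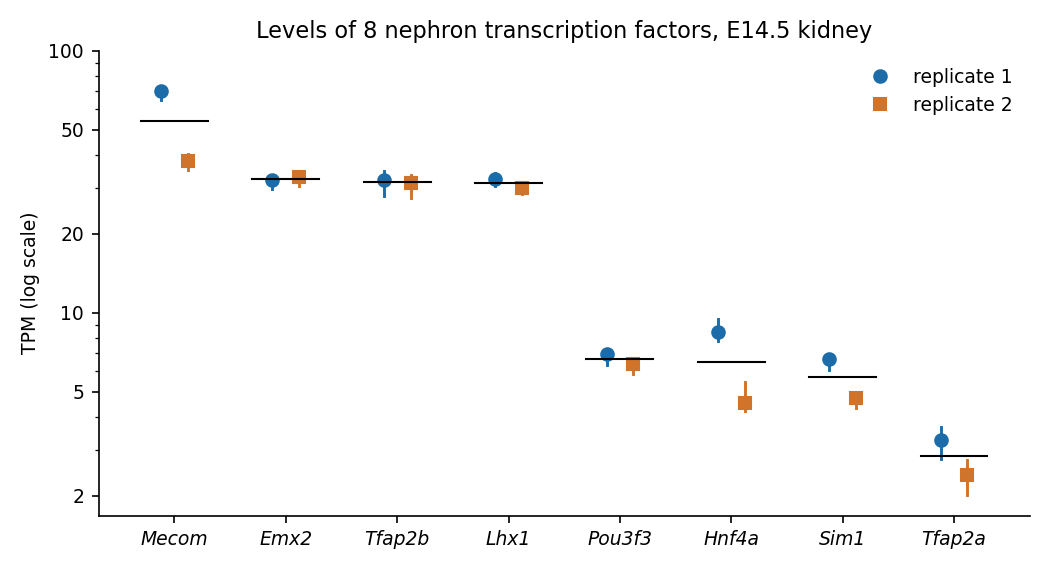
TPM of the 8 factors on a log axis, ordered by mean. Circles are replicate 1, squares replicate 2, vertical lines the deposited credibility bounds and horizontal bars the mean of both. Mecom, Emx2, Tfap2b and Lhx1 lie above 30 TPM in both libraries, and the other 4 lie below 10 TPM.

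Ordered by mean TPM the factors ran Mecom, Emx2, Tfap2b, Lhx1, Pou3f3, Hnf4a, Sim1 and Tfap2a. In 4 of the 7 neighbouring pairs both libraries of the higher gene lay above both of the lower. The widest break was between Lhx1 and Pou3f3, with a gap of 23.1 TPM and means that differed 4.70-fold. Mecom lay above Emx2 by a gap of 5.18 TPM, and Sim1 above Tfap2a by 1.47 TPM. Emx2 lay above Tfap2b by a gap of 0.08 TPM, which is inside the bounds of each estimate. Tfap2b and Lhx1, Pou3f3 and Hnf4a, and Hnf4a and Sim1 overlapped, so their order within each pair is not resolved by these libraries. From replicate 1 alone 3 of the 8 factors kept their place, and from replicate 2 alone 6 did.

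The libraries were next set against each other as log2 of the ratio of (TPM + 1), replicate 1 over replicate 2. This has a single library on each side and so no test. A gene was called apart at an absolute value of at least 1 with at least 5 TPM in the higher library. Of 11424 genes at that level, 4.54% were apart with replicate 1 higher, 0.998% with replicate 2 higher and 5.54% in either direction. This imbalance of 519 against 114 genes was read on the TPM scale. The counts were 128 against 124 with TMM scaling and 129 against 122 with DESeq2 size factors. With FPKM they were 111 against 141, and relative to the median gene 122 against 200. The source of the imbalance was not tested. Of the 8 factors, 7 reached 5 TPM and 0 of those were apart. The median log2 ratio of all such genes was 0.29, with quartiles of -0.00 and 0.58, so most genes read higher in replicate 1 on the TPM scale. The median over the 8 factors was 0.22.

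Mecom had a log2 ratio of 0.86, and 91.3% of the genes at 5 TPM or more had a lower one. Its ratio of counts, each divided by the library's expected counts on genes, was 1.70, with an exact conditional binomial 95% interval of 1.62 to 1.78 that covers counting error only. Hnf4a had a log2 ratio of 0.77, above 87.3% of those genes, and a count ratio, scaled in the same way as the others below, of 1.53 (1.36 to 1.73). Sim1 followed with 0.41 and a count ratio of 1.18 (1.08 to 1.30), and Tfap2a with 0.33 and a count ratio of 1.16 (0.935 to 1.44). Relative to the median gene these differences were 0.57 for Mecom, 0.48 for Hnf4a, 0.12 for Sim1 and 0.04 for Tfap2a.

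The other 4 factors lay below the median gene. Pou3f3 and Lhx1 each had a log2 ratio of 0.11, Tfap2b 0.04 and Emx2 -0.03 on the TPM scale. Pou3f3, Lhx1 and Tfap2b read lower in replicate 1 on FPKM, on counts scaled by TMM or DESeq2 size factors, and relative to the median gene, where they were at -0.18, -0.18 and -0.25. Emx2 was at -0.32 relative to the median gene and stayed below 0 on every scale used. The count ratios of Lhx1, 0.893 (0.843 to 0.946), and of Emx2, 0.894 (0.826 to 0.966), had intervals below 1, and those of Pou3f3, 0.925 (0.847 to 1.01), and of Tfap2b, 0.928 (0.857 to 1.00), reached 1. The factors therefore did not shift together: Mecom and Hnf4a were higher in replicate 1 on every scale used, and Emx2 was not.

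**Figure D2:**
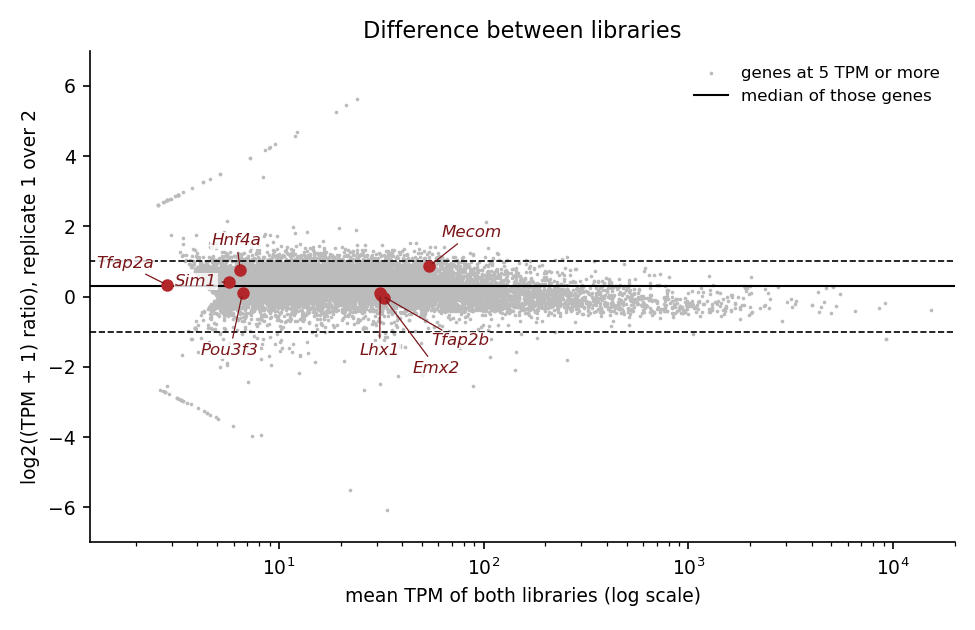
Log2 ratio of (TPM + 1), replicate 1 over replicate 2, against mean TPM on a log axis. Grey points are the 11424 genes at 5 TPM or more in the higher library, red points the 8 factors, the solid line the median gene at 0.29 and the dashed lines a log2 ratio of 1 in either direction. Mecom and Hnf4a lie near the upper dashed line, and Emx2, Tfap2b, Lhx1 and Pou3f3 below the median line.

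Transcript length moved with the ratio over all genes. The median log2 ratio was -0.20 over 1525 genes under 1000 nt, 0.10 over 3148 genes of 1000 to 2000 nt, 0.43 over 4683 genes of 2000 to 4000 nt and 0.61 over 2068 longer genes. Mecom, with a mean transcript length of 3760 and 3449 nt, lay above the median of its length class. Hnf4a, with 4245 and 4362 nt, lay above that of the longest class. Sim1, at 7355 nt, and Pou3f3, at 7409 nt, lay below the median of the longest class, and Lhx1, at 3672 and 3754 nt, below that of its own. Tfap2a, at 3065 and 3068 nt, lay below the median of the same class as Lhx1, at 0.33 against 0.43. Tfap2b, at 2039 and 1920 nt, and Emx2, at 2053 and 1908 nt, fell in the class of 1000 to 2000 nt on average. Their log2 ratios of 0.04 and -0.03 lay below its median of 0.10. The part of transcript length in these differences was not tested.

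The transcript tables divide each gene's reads among its annotated transcripts, and the share of a gene's TPM is given here as isoform percent. All 38 annotated transcripts of the 8 factors were matched by ID to the annotation used for names. Pou3f3-201 and Sim1-201 are the single transcripts of their genes in the tables. Lhx1-201 took 93.5% and 96.7% of Lhx1, and Tfap2a-201 took 89.5% and 90.7% of Tfap2a, with the rest on Tfap2a-202, which starts upstream of it.

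Hnf4a was assigned almost wholly to the transcripts of the proximal start. Transcripts with starts between positions 163546817 and 163547188 took 96.8% and 100% of its TPM, from 679 and 435 expected counts. The only transcript at the distal start, Hnf4a-205, had 0 and 0 counts, which allows up to 0.463 and 0.401 TPM of this model (3 counts per library). It is a short model of 431 nt that ends at position 163552635, and no full-length transcript from the distal start is annotated. Reads from exons further downstream could only be assigned to other models, so these values do not limit the use of the distal start. Hnf4a-204, a short model that starts further downstream, took 3.17% and 0%. Within the proximal group Hnf4a-202 took 93.9% and 99.99%, but it differs from Hnf4a-201 only at the outermost bases of its first and last exons. By posterior mean estimates the split between them was 60.3% to 31.6% in replicate 1 and 52.1% to 39.9% in replicate 2, so their separate shares are not resolved. The sequence before the proximal start is the longer of the Hnf4a sequences shown above.

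Mecom was divided among many of its 17 transcripts, and no start held most of it. Transcripts of the distal start group (positions 30509487 to 30509822), where the longer MDS1-EVI1 form begins, took 30.9% and 26.2%, a level of 21.6 and 9.97 TPM. Those of the EVI1 start group (30013061 to 30013505) took 43.4% and 38.9%, a level of 30.4 and 14.8 TPM. The mean shares were 28.5 ± 3.33% and 41.2 ± 3.15%, so with all models counted the EVI1 group was the larger in both libraries, without overlap. This lead rested largely on noncoding models. In the EVI1 group the retained-intron model Mecom-216 took 8.78% and 10.7%, and Mecom-205, also noncoding, 4.54% and 3.26%. In the distal group the noncoding Mecom-211 took 0.50% and 1.64%, and Mecom-209 0.37% and 2.49%. Mecom-203, from a start between the distal and EVI1 groups at position 30140423, took 9.72% and 15.4%, a level of 6.81 and 5.87 TPM. Its level thus differed less between libraries than the levels of both main groups. The most distal annotated start, that of Mecom-208, had 0 counts in both libraries. Protein-coding models took 82.0% and 76.4% of Mecom, and retained-intron models 12.6% and 16.2%.

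Tfap2b and Emx2 were each read mainly from a pair of starts, and the balance of these depended on the unit. Another Tfap2b start, that of the retained-intron model Tfap2b-203, took 6.91% and 2.25% by TPM. Tfap2b-202, from the inner start, led by TPM with 39.3% and 42.0%, followed by Tfap2b-205, a retained-intron model of 610 nt, with 33.5% and 37.9%. Retained-intron models took 40.4% and 40.1% of Tfap2b by TPM but 10.6% and 11.2% by expected counts, since a short model gains TPM from few reads. Its protein-coding models held 89.4% and 88.8% of the expected counts. For Emx2 the transcript from the inner start, at position 59459519, took 64.6% and 75.5% by TPM, and the longer one from the outer start, at 59458372, took 35.4% and 24.5%. By expected counts the outer start led in replicate 1, with 51.0%, and the inner start in replicate 2, with 61.8%.

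**Figure D3:**
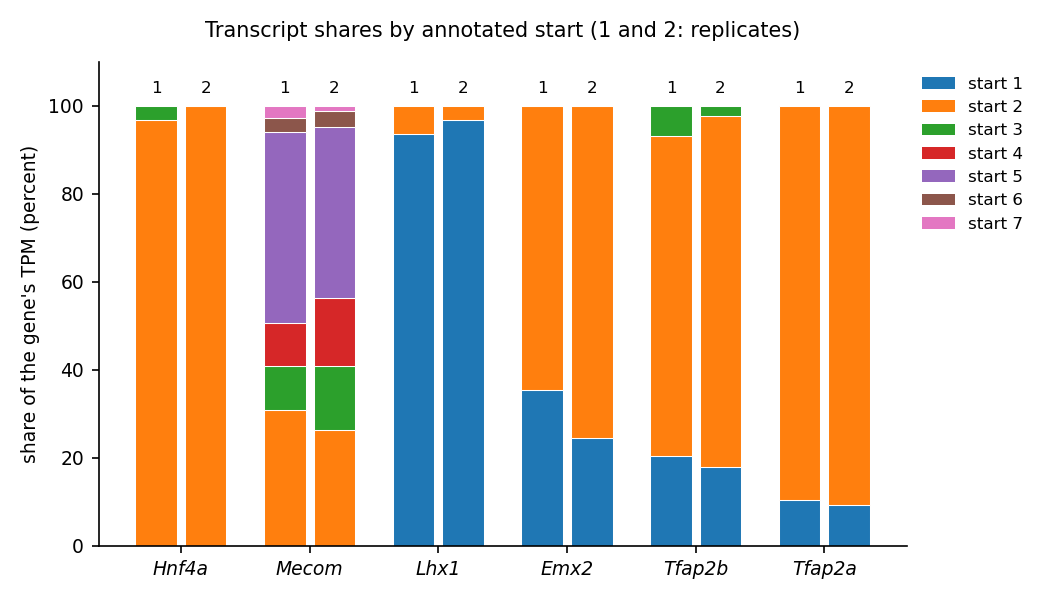
Share of each gene's TPM by annotated start, in percent, for the 6 factors with more than 1 transcript. Bars 1 and 2 are the replicates, and colours number the starts of each gene from the most upstream. Hnf4a, Lhx1 and Tfap2a are each assigned mostly to a single start, and Mecom to several. With noncoding models counted, start 5 (EVI1) and start 2 (MDS1-EVI1) are the largest for Mecom.

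Each factor was set beside its closest relatives, which can bind like sequences. The factor was higher than each of its 11 paralogs in both libraries, and 4 of the 11 were detected, beside 59.0% of all protein-coding genes. Lhx1 was at least 532-fold and 568-fold above Lhx5, which had 0 counts in both libraries (3 counts per library taken as the floor). Hnf4a, at 8.43 and 4.53 TPM, was 10.7-fold and 6.86-fold above Hnf4g, at 0.79 and 0.66 TPM. Pou3f3 was 5.46-fold and 5.12-fold above Pou3f1, at 1.27 and 1.24 TPM. Pou3f4 was near 0, with 10 and 15 counts, and Pou3f2 had 0 counts in both libraries.

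Tfap2b was 9.79-fold and 13.0-fold above Tfap2a, and 61.7-fold and 69.3-fold above Tfap2c, at 0.52 and 0.45 TPM. Tfap2d and Tfap2e, the other AP-2 genes, had 0 counts in both libraries. The AP-2 family was thus present mainly as Tfap2b.

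In the remaining families the margins were narrower than in the AP-2 family. Sim1 was 3.15-fold and 2.97-fold above Sim2, at 2.11 and 1.60 TPM. Emx2 was 4.81-fold and 5.84-fold above Emx1, at 6.69 and 5.64 TPM. Mecom was 3.60-fold and 4.01-fold above Prdm16, a related zinc finger protein, at 19.4 and 9.50 TPM. On the TPM scale Prdm16 had a log2 ratio between libraries of 0.96, on the same side as the 0.86 of Mecom. Relative to the median gene these were 0.67 and 0.57. By counts Prdm16 differed less, with a count-ratio interval of 1.11 to 1.31, below the 1.62 to 1.78 of Mecom. Its mean transcript length was 3468 nt in replicate 1 and 4944 nt in replicate 2. The part of this length change in its log2 ratio was not tested.

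**Figure D4:**
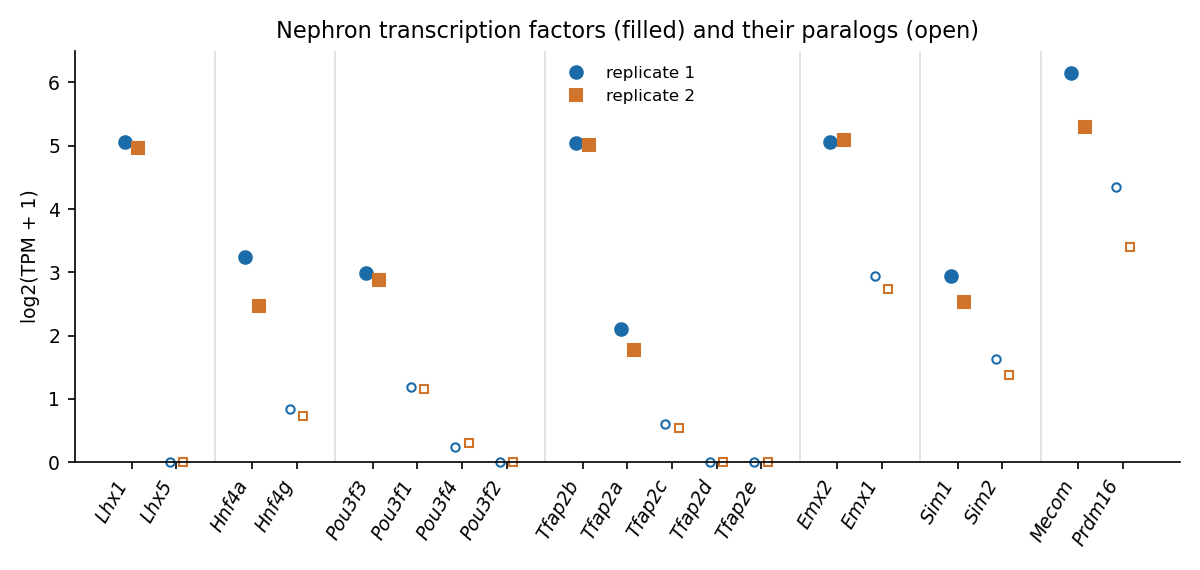
Log2(TPM + 1) of each factor (filled) and its paralogs (open), with families parted by grey lines. Circles are replicate 1 and squares replicate 2. In each family a factor lies highest in both libraries, and Lhx5, Pou3f2, Tfap2d and Tfap2e lie at 0.

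Several factors share their locus with a noncoding gene on the other strand. Lhx1os, whose start lies 125 bases from that of Lhx1 in the opposite direction, had 53.1 and 43.2 TPM, from 463 and 435 expected counts. The bodies of the pair do not overlap, and by TPM Lhx1os was above Lhx1 in both libraries, although Lhx1 had more counts. Pantr1, which starts 926 bases from Pou3f3 on the other strand, had 26.5 and 35.8 TPM and lay above its coding neighbour on the TPM scale. By expected counts it was the lower, since Pou3f3 had 990 and 1045 and Pantr1 had 232 and 342. AC122898.1, annotated over Pou3f3 on the same strand, had 0.21 and 0.29 TPM.

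Emx2os overlaps the first 264 bases of Emx2 and had 6.85 and 5.31 TPM. Neither gene had a whole number of expected counts, but the pair summed to 1885 and 1930, so reads were shared out between opposite strands. Emx2 held 65.1% and 69.5% of the pair. Gm26688 lies antisense within Tfap2a and had 18.4 and 63.8 expected counts, again fractional, with pair sums of 208 and 224. Tfap2a held 91.2% of that pair in replicate 1 and 71.5% in replicate 2. Tfap2a thus held the smaller share of its pair in replicate 2, and the level of Tfap2a carries the uncertainty of that split. Alone it had more counts in replicate 1, 190 against 160, while the pair had more in replicate 2, 224 against 208. The direction of the difference of Tfap2a between libraries therefore depends on the split, which its count-ratio interval does not cover.

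For Hnf4a the antisense gene Hnf4aos had 2 and 0 counts. Mecomos, antisense over the inner part of Mecom, had 0.51 and 0.48 TPM, and Gm37024, annotated within Mecom on the other strand, had 7.60 and 3.93 TPM. Gm47061 and Gm47067, annotated antisense to Tfap2a, have no row in the tables.

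Within a pool of 87 genes, made of the nephron and ureteric lists and the proteins that bind the factors, the gene closest in level to a factor was found by the summed absolute difference of log2(TPM + 1) over both libraries. Wnt11, a ligand of ureteric tips, was closest to Lhx1, Tfap2b and Emx2, at 34.1 and 30.6 TPM. Greb1 was closest to Sim1, at 6.63 and 4.70 TPM, Arnt2 to Hnf4a, at 7.95 and 4.48 TPM, Sox8 to Pou3f3, at 6.91 and 4.86 TPM, and Cldn16 to Tfap2a, at 2.57 and 2.36 TPM. Likeness over 2 libraries is a likeness of level and spread only.

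Genes of the compartments in which the factors act were then listed. The count detected in each of these lists stands beside the 59.0% of all protein-coding genes. All 15 of 15 genes of the renal vesicle and S-shaped body were detected, and their median was 21.25 TPM. The highest were Ccnd1, a cyclin, at 235 and 160 TPM, Pax8, a paired-domain factor, at 110 and 69.0 TPM, and Osr2 at 80.8 and 61.3 TPM, and the lowest Greb1 and Bmp2, at 9.90 and 6.05 TPM. Lhx1, at 32.45 and 30.1 TPM, lay inside that range. Cdh6, named after its values were seen, was the gene of this list apart, with a log2 ratio of 1.13 that was 0.84, and so not apart, relative to the median gene.

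Detection was lower for the proximal tubule, with 8 of 15 genes, a share near the 59.0% of all protein-coding genes. The list median was 2.19 TPM (2.51 in replicate 1 and 1.01 in replicate 2). Pdzk1, a scaffold of apical transporters, had 49.3 and 26.4 TPM, Slc34a1, a phosphate transporter, 21.3 and 7.97 TPM, and Ass1, an enzyme of arginine synthesis, 15.9 and 10.3 TPM. Kap, an androgen-dependent gene of the mature tubule, had 0 counts, and Slc5a12, a lactate transporter, 0.16 and 0.04 TPM. Hnf4a and Sim1 lay above this list's median in both libraries. Over the 13 of these genes that averaged at least 1 TPM the median log2 ratio was 0.82, beside 0.77 for Hnf4a and 0.41 for Sim1, and 2 of the 4 at 5 TPM were apart, Slc34a1 and Lrp2 (Lrp2 was named after its values were seen). Relative to the median gene Slc34a1, at 1.03, was still apart and Lrp2, at 0.91, was not.

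For the loop and distal tubule 7 of 12 genes passed, again near the share of all protein-coding genes, and the list median was 2.09 TPM. Sostdc1, a BMP antagonist, had 40.1 and 32.8 TPM, Slc12a1, the salt transporter of the thick ascending limb, 16.8 and 6.0 TPM, and Cldn10, a tight junction protein, 9.50 and 5.36 TPM. Pvalb had 0 counts and Slc12a3, the salt transporter of the distal convoluted tubule, 0.11 and 0.10 TPM. Slc12a1 was apart, with a log2 ratio of 1.35 (1.06 relative to the median gene), while Pou3f3 and Tfap2b stood at 0.11 and 0.04.

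The ureteric list was the highest, with 10 of 10 genes detected and a median level of 35.5 TPM. Calb1 had 164 and 168 TPM, Krt8 157 and 146 TPM and Hoxb7 46.1 and 46.4 TPM, and the lowest were Aqp2, at 4.28 and 2.80 TPM, and Wnt9b, at 6.60 and 3.67 TPM. Emx2, at a mean of 32.5 TPM, lay close to this median, and Tfap2b, at 31.6 TPM, and Lhx1, at 31.3 TPM, were about as close. The median log2 ratio of the ureteric list was 0.32, near the 0.29 of all genes, beside 0.56 for the early nephron list and 0.60 for the loop and distal list.

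**Figure D5:**
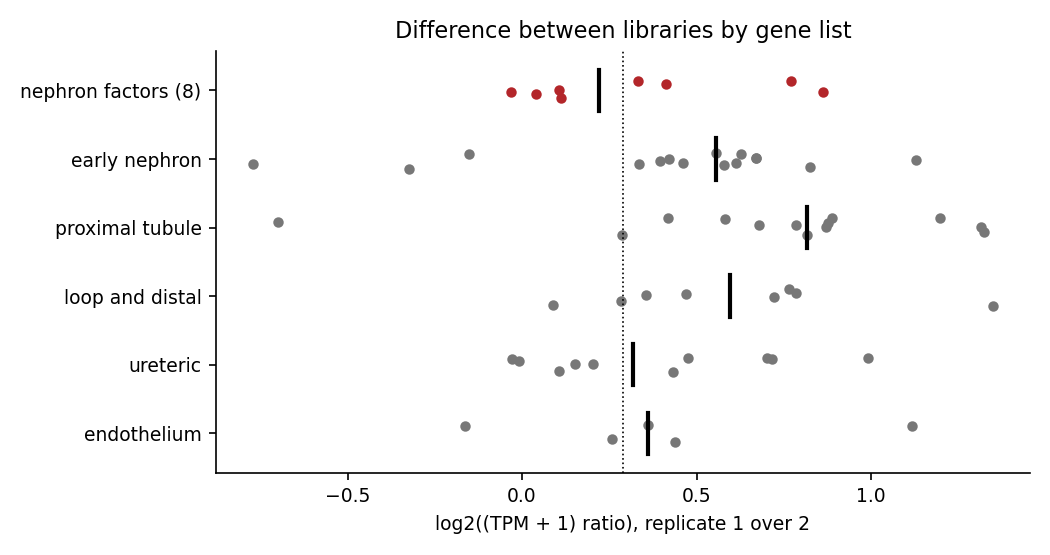
Log2 ratio of (TPM + 1), replicate 1 over replicate 2, for the genes of 6 lists that averaged at least 1 TPM. Points are genes, black bars list medians and the dotted line the median gene at 0.29. The proximal tubule list has the highest median, 0.82, and the 8 factors, in red, run from -0.03 to 0.86.

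Among 22 other nephron transcription factors 21 passed, beside 59.0% of all protein-coding genes, and their median was 15.6 TPM. Tcf21, a stromal and podocyte factor, had 259 and 289 TPM, Wt1, a podocyte and progenitor factor, 129 and 81.5 TPM, and Gata3, a duct factor, 68.7 and 44.6 TPM. Esrrb, at 0.11 and 0.11 TPM, and Ppara, at 1.78 and 1.24 TPM, were the lowest.

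Of 13 genes for proteins that bind the factors 12 were detected, beside 59.0% of all protein-coding genes, and their median was 25.6 TPM. The co-repressors Ctbp1 and Ctbp2, which bind Mecom, had 249.9 and 155 TPM and 123 and 99.0 TPM. Ssbp3, of the LIM-homeodomain complex in which Lhx1 acts, had 63.95 and 85.0 TPM. Arnt2, a partner of Sim1, had 7.95 and 4.48 TPM beside the 6.65 and 4.75 TPM of Sim1. Nr0b2, a repressor of Hnf4a, was near 0, at 0 and 0.09 TPM. Rlim and Arnt, named after their values were seen, were the 2 partners apart, both higher in replicate 1. Relative to the median gene they were at 0.78 and 0.89, and neither was then apart.

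Some of the 8 factors are also made outside the nephron, so markers of those cells were read. The count detected in each such list stands beside the 59.0% of all protein-coding genes that were detected. For Hnf4a, 5 of 6 liver genes were detected and summed to 34.7 and 24.2 TPM, most of it Afp, at 21.95 and 13.0 TPM, with Alb at 1.34 and 1.05 TPM. Of 4 intestinal genes 1 was detected, Vil1, which kidney tubules also make, with a log2 ratio of 1.04 (0.75 relative to the median gene), and Cdx2 had 0 counts. For Mecom, 5 of 5 endothelial genes were detected and summed to 186 and 156 TPM, with a median log2 ratio of 0.36. Of 5 blood progenitor genes 4 were detected, at 39.8 and 22.0 TPM in sum, with a median log2 ratio of 0.69. Kdr and Kit, named after their values were seen, were the genes apart in these lists, both higher in replicate 1 as Mecom was, with log2 ratios of 1.12 and 1.14. Relative to the median gene they were at 0.83 and 0.85 and were not apart. The other endothelial genes had log2 ratios of 0.44 (Pecam1), 0.36 (Tie1), 0.26 (Cdh5) and -0.16 (Emcn, the highest of them by mean TPM). Those of the other blood progenitor genes were 0.70 (Ptprc), 0.67 (Gata2), 0.15 (Hlf) and -0.02 (Gata1, not detected). The part of these cells in the levels of Hnf4a and Mecom was not tested.

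For Tfap2a and Tfap2b, 0 of 5 sympathetic genes were detected, at 0.21 and 0.13 TPM in sum with Hand2 at 0 counts. Of 4 Schwann and neural crest genes 1 was detected, and Sox10 was at 0.10 and 0.12 TPM. Of 5 epidermal and urothelial genes 2 were detected, Upk3a, at 9.87 and 8.86 TPM, and Upk1b, at 1.5 and 1.30 TPM, while Krt5 was at 0.05 and 0 TPM. Of 6 neuronal genes 3 were detected, beside 59.0% of all protein-coding genes, at 21.1 and 17.7 TPM in sum, with Neurod1 at 0 counts. For Emx2 and Lhx1, 0 of 5 gonadal genes were detected, with Foxl2 and Dazl at 0 counts, and of 4 adrenal cortex genes 1 was, Mc2r, at 3.01 and 3.19 TPM, with Cyp17a1 at 0 counts. The sums of the sympathetic, Schwann and neural crest, and gonadal lists were below the lowest factor in both libraries. Those of the neuronal, epidermal and urothelial, and adrenal cortex lists were above it. The part of these cells in the levels of Tfap2a, Tfap2b, Emx2 and Lhx1 was not tested.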

How the data were processed

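RNA extraction used mirVana and the linked general protocol is Smart-seq, per the labels' protocols. The deposited tables were made against mm10 with annotation M4, per the deposited text files; the sources used here name neither the quantifier nor the strand setting of the counting. Deposited expected counts are estimated reads per feature. The deposited TPM and FPKM are scaled for length and depth, TPM also as posterior means. The deposited credibility bounds are a signal on the TPM scale, and the deposited isoform percent is a transcript's share of its gene's TPM. Lengths, in nt, come from the same tables.

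Symbols and coordinates (1-based) came from GENCODE M21 on GRCm38. Levels, log2 ratios with a pseudocount of 1, count-ratio intervals and transcript sums were computed here in Python 3.11.15 (scipy 1.17.1, pandas 2.3.3, numpy 2.4.6) and drawn with matplotlib 3.10.9. Starts within 500 bases were joined. Size factors came from edgeR 4.0.16 and DESeq2 1.42.0 in R 4.3.3, on rounded expected counts. The rule that calls a gene apart was checked on simulated libraries with known changes. No test between groups is possible. Intervals and limits cover counting error only. Spike-ins held 4.34% and 4.95% of counts.

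The factors and lists were chosen with earlier results of these data known. Named were all 8 factors and 11 paralogs, of each other nephron list the 3 highest and 2 lowest genes by mean TPM, annotated genes overlapping a factor on the other strand or starting within 5000 bases, and the closest gene in level. Some markers of other cells enter only counts and sums, and the gene closest in level to Mecom is not reported here.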

Additional observations from a re-analysis of the deposited data

How the results depend on the processing

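All 8 factors were detected, and 0 were apart between libraries, under every alternative tried for those counts. The median level of the factors, 18.95 TPM, was 22.2 TPM after rescaling without mitochondrial, haemoglobin and spike-in features, and 18.2 to 20.3 TPM from single libraries. In the order of levels 4 of 8 factors kept their place with posterior mean TPM, and 3 to 6 with a library left out. With a library left out, the list medians ran from 16.05 to 20.1 TPM (early nephron), 1.01 to 2.51 TPM (proximal tubule) and 1.45 to 2.56 TPM (loop and distal). The median leading-transcript share of 92.6% was 79.1% from posterior means, 94.5% of expected counts (chosen after seeing the data) and 91.5% to 93.7% from single libraries.

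Genes apart with replicate 1 higher numbered 519, against 170 with a pseudocount of 5, 111 with FPKM, 128 with TMM and 129 with DESeq2 size factors, and 122 with the median subtracted (chosen after seeing the data). Those with replicate 2 higher numbered 114, against 243 with no filter on low values, 141 with FPKM, 124 with TMM, 122 with DESeq2 size factors and 200 with the median subtracted. Over the alternatives the log2 ratio ran from 0.57 to 0.88 for Mecom, 0.48 to 0.88 for Hnf4a, 0.12 to 0.48 for Sim1 and 0.04 to 0.44 for Tfap2a. It ran from -0.24 to 0.11 for Lhx1, -0.18 to 0.13 for Pou3f3, -0.25 to 0.04 for Tfap2b and -0.32 to -0.03 for Emx2. On the TMM scale the median gene was at 0.03. No paired analysis was possible because there is 1 group. With 2 libraries the spread of each level rests on a single difference.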
